A study of Canis lupus familiaris with 4 samples.

Results

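The genes described here encode the subunits, regulators and assembly chaperones of the constitutive proteasome. They were taken from the arrays as all probes, control spots left out, whose gene symbol starts with PSMA, PSMB, PSMC, PSMD, PSME or PSMG and a digit, without PSMB8, PSMB9 and PSMB10, the catalytic subunits that replace PSMB5, PSMB6 and PSMB7 in the immunoproteasome. The rule used names and no measured value. It found 40 genes with 62 probes among 13869 gene symbols and 43603 probes. Of these, 38 genes with 60 probes passed the filter on dim probes and were tested. PSMA8, the testis subunit, and PSMB11, the thymus subunit, did not pass it. The 38 tested genes were well above background in all 8 channels, and 28 of them lay in the brightest 20% of the 10878 tested genes. All 40 symbols were found in a RefSeq gene table. A further 4 probes, named only in their descriptions as PSMA4, PSMC6, PSMG1 and a PSMA1-like gene, fall outside the rule.

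The proteasome degrades proteins that carry ubiquitin chains. Its 20S core is a barrel whose outer rings of alpha subunits form the gate and whose inner rings of beta subunits hold the proteolytic sites. The 19S regulatory particle docks on the core. Its base carries ATPases that unfold the substrate, and its lid holds the enzyme that removes the ubiquitin chain. Other regulators, among them PSME1 and PSME2, can dock in its place, and chaperones that leave the finished particle guide assembly of the core and of the base.

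RNA came from P114 and CMT-U27, established canine mammary cancer cell lines, as stem-like cells sorted by flow cytometry for Sca1, EpCAM and CD44. In each line the sorted cells were either grown together with tumour-associated macrophages or grown alone, both labelled day 3. Each line had 2 arrays, and each array held both cultures in different dyes, with the dyes exchanged between the arrays of a line. Per the channel labels, on which every direction below rests, the co-culture carried Cy3 on the first P114 array (replicate 1) and the second CMT-U27 array (replicate 2), and Cy5 on the remaining arrays. No genotype, allele or further agent is labelled, and the labels name neither the source of the macrophages nor how the co-cultured cells were separated from them. The labels call the arrays biological replicates but not separate RNA extracts, so the spread behind the p-values may be technical. In the co-culture fit that spread is what terms for line and dye leave over, moderated toward that of other probes. It is not the gap between the arrays of a line. For PSMD9 in CMT-U27 the arrays had log2 ratios of -0.63 and 0.98, while the standard error (SE) was 0.06.

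P114 replicate 1 stood apart: 89.4% of spots in Cy3 and 91.7% in Cy5 were well above background, against 57.9% to 65.7% in the channels of the other arrays. Across all tested probes the co-culture log2 ratios of the 2 P114 arrays correlated at -0.15 (Pearson's r). Those of the 2 CMT-U27 arrays correlated at 0.05, and probes are not independent replicates. All 4 arrays lay on 1 slide. The 6 epithelial markers on the array were above background in both cultures of every array, with co-culture log2 ratios of -0.53 to 0.10 in P114 (median -0.23, 1 of 6 above 0) and -0.32 to 0.27 in CMT-U27 (3 of 6 above 0); their part in the results was not tested. Of 16 macrophage markers, 16 were above background in both channels of P114 replicate 1, and 2 to 5 in the channels of the other arrays. The 4 tested macrophage markers had co-culture ratios of -0.22 to 0.04 in P114 and -0.01 to 0.13 in CMT-U27. Their part in the results below was not tested. In RNA from a whole culture, fewer cells of a type and less RNA per cell cannot be told apart.

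The first comparison asked whether RNA of proteasome genes differed between co-culture and single culture. No proteasome gene passed an adjusted p of 0.05 in P114, in CMT-U27, in the mean of both lines or in the difference between lines (0 of 38 in each, limma), and the share over all tested genes was 0% in each. The members centred near 0 after loess normalization, which removes any trend with brightness, so each ratio is relative to other genes of like brightness. Their median log2 ratio was 0.02 in P114 and 0.03 in CMT-U27, against 0.01 and 0.03 over all tested genes, but was 0.43 and 1.48 under median centring without loess. Median centring moved the median of all tested genes too, to 0.22 in P114 and 0.94 in CMT-U27, and that of the brightest 20% to 0.43 and 1.45. The members thus stayed beside genes of their own brightness under that scaling, and why bright genes shift was not tested. Under median centring 37 of the 38 members passed the threshold in CMT-U27 by their brightest probe. So did 17343 of the 28694 tested probes, a count that takes in dim probes and is not of like units. All 38 members were then above 0 on 3 arrays, as were 99.9% to 100% of the brightest 20%, so signs under that scaling say nothing particular of a role.

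**Figure D1:**
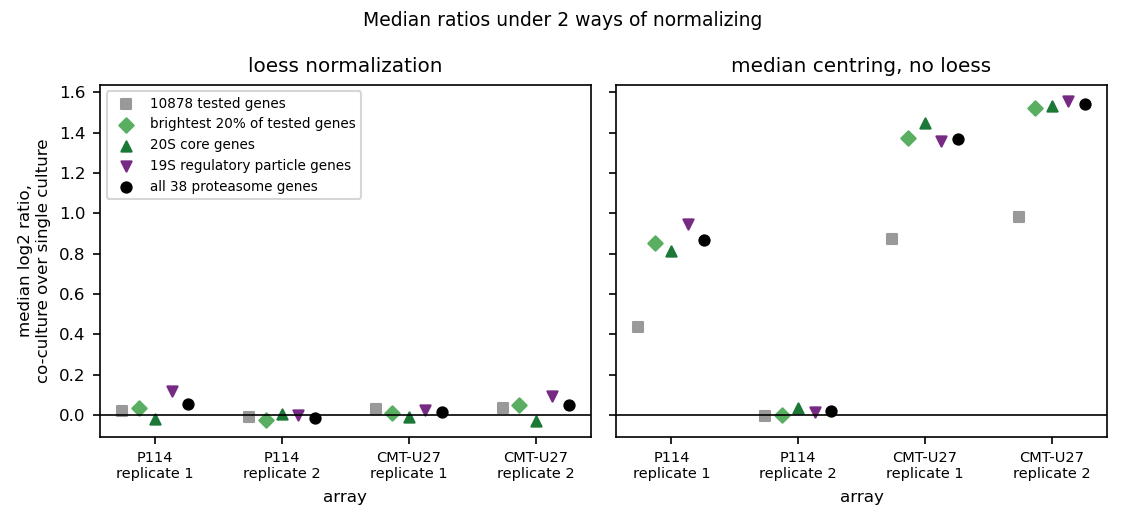
Median log2 ratio of co-culture over single culture (vertical axis) on each of the 4 arrays (horizontal axis), for all tested genes, their brightest 20%, the 20S core genes, the 19S regulatory particle genes and all 38 proteasome genes. With loess (left) the medians lie near 0. With median centring (right) the proteasome genes lie, in the order of the axis, at 0.87, 0.02, 1.37 and 1.54, beside the brightest 20% at 0.85, 0.00, 1.37 and 1.52.

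At an unadjusted p under 0.05, 1 member was higher in co-culture in P114 and 0 were lower, where 3.93% and 2.74% of all tested genes were. In CMT-U27 3 members were higher and 0 lower, against 3.02% and 0.984% of all genes. In the mean of both lines 3 were higher and 0 lower, against 5.73% and 1.76%. For CMT-U27 minus P114, 1 was higher and 0 lower, against 2.62% and 0.837%. These shares lie close to the background or rest on a few genes.

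The arrays of a line often disagreed on the sign. In P114, 6 members were above 0 on both arrays (23.7% of all tested genes were) and 3 were below 0 on both (19% of all genes), so 9 of 38 kept a sign. In CMT-U27, 15 members were above 0 on both arrays, where 41.2% of all genes were, and 5 were below 0 on both, where 10.9% were. On all 4 arrays 2 members were above 0, PSMC3 and PSMD3, against a background of 11.8%, and 0 were below 0, against 3.09%. The median distance between the arrays of a line was 0.23 log2 units for members in P114 (0.16 over all tested genes) and 0.12 in CMT-U27 (0.09 over all genes).

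**Figure D2:**
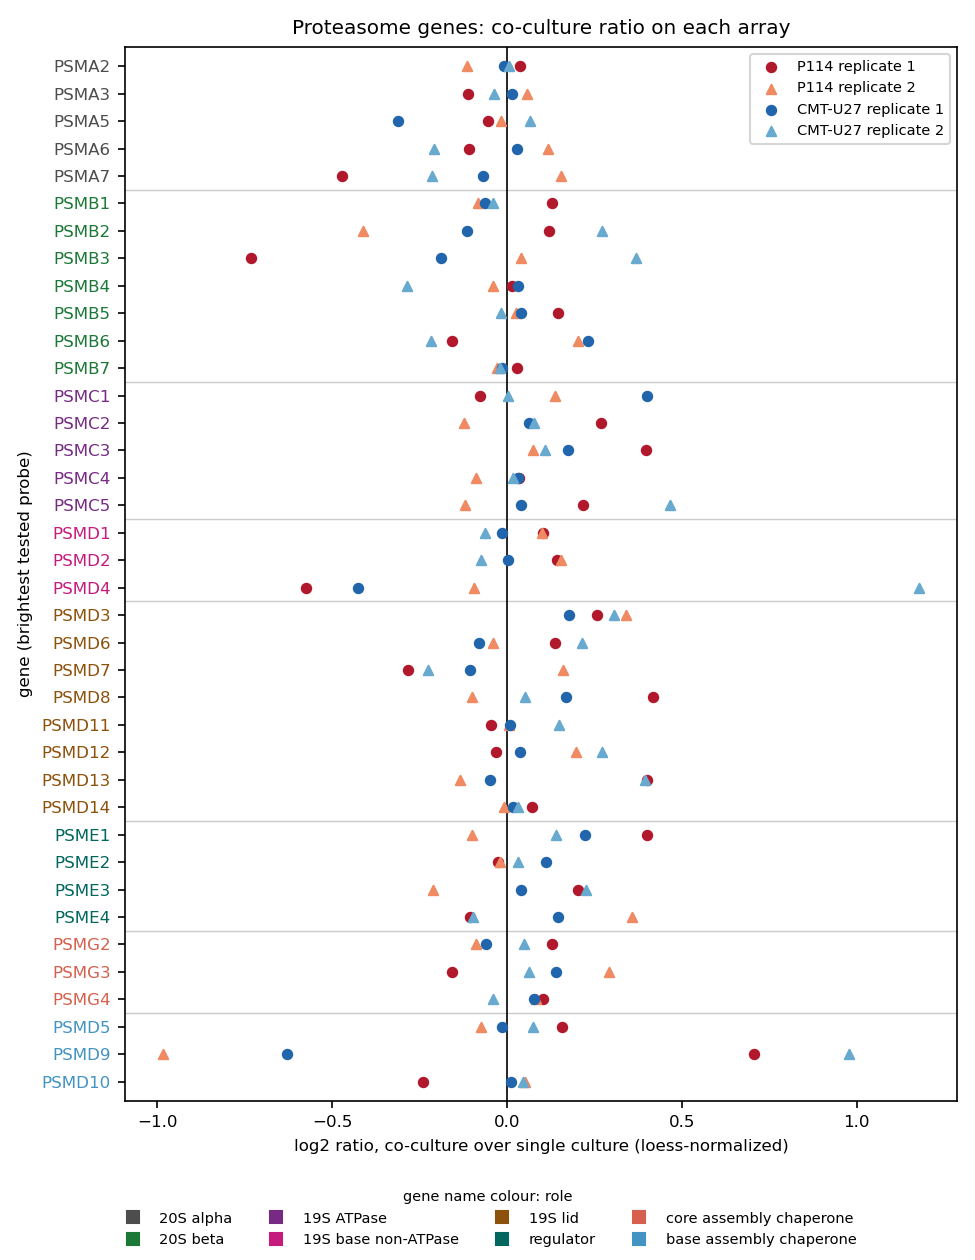
Log2 ratio of co-culture over single culture after loess (horizontal axis) of the brightest tested probe of each of the 38 genes (vertical axis, grouped by role), with 1 point for each array. Most points lie within 0.5 of 0, PSMD9 and PSMD4 spread furthest, and PSMD3 lies right of 0 on all 4 arrays. Under median centring the points of 3 arrays move to the right, as the medians by scaling show.

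In the 20S core the alpha subunits form the gate. PSMA2, PSMA3, PSMA5, PSMA6 and PSMA7 were tested. Their fitted log2 ratios were as low as -0.16 in P114 (1 of 5 above 0, against 53.9% of all tested genes). In CMT-U27 they were as low as -0.14 (0 of 5 above 0, against 71.8%). Under median centring all 5 were above 0 on 3 arrays with all other members. PSMA7 had -0.47 and 0.15 on the P114 arrays and -0.07 and -0.22 on the CMT-U27 arrays for its brightest probe. The other 2 PSMA7 probes had fitted ratios of 0.34 and -0.07 in P114, so its probes disagreed there in sign. PSMA6 had -0.11 and 0.12 in P114 and 0.03 and -0.21 in CMT-U27, so the arrays of each line lay on opposite sides of 0.

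Among the beta subunits, PSMB5, PSMB6 and PSMB7 carry the chymotrypsin-like, caspase-like and trypsin-like sites. PSMB5 had log2 ratios of 0.14 and 0.03 on the P114 arrays (fitted 0.09, SE 0.07, unadjusted p = 0.291, limma) and 0.04 and -0.02 on the CMT-U27 arrays (fitted 0.01, SE 0.07, unadjusted p = 0.889, limma). PSMB6 had -0.16 and 0.20 in P114 and 0.23 and -0.22 in CMT-U27, so the array of each line with the co-culture in Cy3 was the low one. PSMB7 had 0.03, -0.03, -0.01 and -0.02 on the arrays in the same order, the narrowest span of the catalytic subunits. None of the 3 passed the adjusted threshold. Of the structural beta subunits, PSMB2 had 0.12, -0.41, -0.11 and 0.27, PSMB3 had -0.73, 0.04, -0.19 and 0.37, and the cultures' order changed between arrays of a line for both. PSMB4 had 0.01, -0.04, 0.03 and -0.29.

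The immunoproteasome counterparts are given beside them as values, since they are not members. PSMB9, which replaces PSMB6, had log2 ratios of 0.15 and 0.20 in P114 and 0.43 and 0.46 in CMT-U27. PSMB10, which replaces PSMB7, had 0.12 and -0.12 in P114 and 0.31 and 0.45 in CMT-U27. Both lay above every catalytic member on both CMT-U27 arrays, and neither passed the adjusted threshold (unadjusted p = 0.00271 and 0.00508 in CMT-U27, limma). The PSMB8 probe did not pass the filter.

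The probes for PSMB7, a catalytic member, and PSMB9, an immunoproteasome subunit with a larger co-culture ratio in CMT-U27, are shown as examples of what was measured. PSMB9 is not the counterpart of PSMB7. Both are 60 bases long, 5′ to 3′, with no part singled out in capitals; the files place the PSMB7 probe at chr9:58562701-58589700 and the PSMB9 probe at chr12:2437889-2437948 on the dog assembly CanFam3.1.
PSMB7: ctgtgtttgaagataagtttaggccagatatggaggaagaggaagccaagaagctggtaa
PSMB9: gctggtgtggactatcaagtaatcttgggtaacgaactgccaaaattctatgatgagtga
The PSMB7 placement is longer than the probe, as for a probe that crosses introns, and the PSMB9 probe ends in a stop codon.

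The ATPases of the 19S base unfold substrates and open the core's gate. PSMC1, PSMC2, PSMC3, PSMC4 and PSMC5 were tested. In CMT-U27 all 5 fitted ratios were above 0, from 0.02 to 0.25, where 71.8% of all tested genes were above 0. In P114 4 of 5 were, from -0.03 to 0.24, where 53.9% of all tested genes were. On P114 replicate 2, 3 of the 5 were below 0, and under median centring all members were above 0 on the other arrays. PSMC3 was above 0 on every array, at 0.40 and 0.07 in P114 and 0.17 and 0.11 in CMT-U27. PSMC5 had 0.22 and -0.12 in P114 and 0.04 and 0.46 in CMT-U27 (fitted 0.25, SE 0.06, unadjusted p = 0.0188, adjusted p = 1, limma), and its CMT-U27 arrays lay further apart than that fitted value. PSMC1 had -0.08 and 0.14 in P114 and 0.40 and 0.00 in CMT-U27, and its second probe had 0.06, 0.52, 0.34 and 0.04.

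The PSMC3 and PSMC5 probes are shown because both lie in the same functional stretch of 2 related ATPases. Capitals mark the codons of the Walker B motif, a hydrophobic run followed by aspartate and glutamate that takes part in ATP hydrolysis, found by translating the probe. The files place them at chr18:42215213-42217250 and chr9:11786694-11786753 on CanFam3.1.
PSMC3: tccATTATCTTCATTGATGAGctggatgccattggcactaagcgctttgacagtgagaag
PSMC5: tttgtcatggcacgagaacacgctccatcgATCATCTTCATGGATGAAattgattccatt
Each probe was compared between samples within itself, and not with the other.

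The non-ATPase subunits of the base include the scaffold subunits PSMD1 and PSMD2 and the ubiquitin receptor PSMD4. PSMD1 had 0.10 and 0.10 in P114 and -0.01 and -0.06 in CMT-U27. PSMD2 had 0.14 and 0.15 in P114 and 0.00 and -0.07 in CMT-U27. The P114 arrays of both scaffold genes were close to each other and above both CMT-U27 arrays, and 3 other PSMD1 probes ranged from -0.07 to 0.04 in P114. PSMD4 had -0.57 and -0.09 in P114 and -0.43 and 1.18 in CMT-U27, the widest span of any member in that line.

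In the lid, PSMD3, a scaffold subunit, had the smallest unadjusted p of any member in P114 and in the mean of both lines. Its log2 ratios were 0.26 and 0.34 in P114 and 0.18 and 0.31 in CMT-U27, so the co-culture was higher on each of the 4 arrays and in either dye. The means were 0.30 ± 0.06 in P114 and 0.24 ± 0.09 in CMT-U27 (SD, n = 2 arrays each), and the mean of both lines was 0.27 (SE 0.05, unadjusted p = 0.00721, adjusted p = 0.757, limma). The dimmer PSMD3 probe had 0.21, 0.02, 0.14 and 0.14, above 0 on each array as well. PSMD13 had 0.40 and -0.14 in P114 and -0.05 and 0.40 in CMT-U27. The arrays with the co-culture in Cy3 were the high ones in both lines, and Cy3 was the brighter dye on all 4 arrays.

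PSMD14, the lid enzyme that cuts the ubiquitin chain from the substrate, was measured by 2 overlapping probes, shown because they share the bases in capitals. The first lies at chr36:6971707-6971766 and the second at chr36:6971752-6982338 on CanFam3.1.
PSMD14 brighter probe: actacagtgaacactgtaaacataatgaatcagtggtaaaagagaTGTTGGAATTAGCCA
PSMD14 dimmer probe: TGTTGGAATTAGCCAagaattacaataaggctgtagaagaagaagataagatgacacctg
The brighter one had 0.07, -0.01, 0.02 and 0.03 and the dimmer one 0.10, -0.07, 0.09 and -0.03 on P114 replicates 1 and 2 and CMT-U27 replicates 1 and 2. Since they share bases they are not independent readings. The 8 lid genes together had medians of 0.07 in P114 (6 of 8 above 0, against 53.9% of all tested genes) and 0.09 in CMT-U27 (7 of 8 above 0, against 71.8%). By array the lid median was 0.10 and -0.002 in P114 (5 and 4 of 8 above 0). In CMT-U27 it was 0.01 and 0.18 (5 and 7 of 8 above 0). With the scanner log ratio the CMT-U27 medians were -0.07 and 0.13 (2 and 6 of 8 above 0). Under median centring the 8 lid genes were above 0 on 3 arrays with all other members.

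The regulators PSME1 and PSME2 form the interferon-inducible cap, PSME3 a nuclear cap and PSME4 the single-chain activator PA200. PSME1 had 0.40 and -0.10 in P114 and 0.22 and 0.14 in CMT-U27, and its second probe had 0.37, 0.10, 0.36 and 0.27. PSME2 had -0.03 and -0.02 in P114 and 0.11 and 0.03 in CMT-U27. PSME3 had 0.20, -0.21, 0.04 and 0.23, and PSME4 -0.11, 0.36, 0.15 and -0.10. All 4 fitted ratios in CMT-U27 were above 0, from 0.02 to 0.18, where 71.8% of all tested genes were above 0.

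Of the chaperones of core assembly, PSMG2, PSMG3 and PSMG4 had fitted ratios of 0.02 to 0.09 in P114 and -0.01 to 0.10 in CMT-U27. PSMG3 had -0.16, 0.29, 0.14 and 0.06 and PSMG4 0.10, 0.08, 0.08 and -0.04 on the arrays in the same order. Of the chaperones of base assembly, PSMD5 had 0.16, -0.08, -0.01 and 0.07, and PSMD10, also known as gankyrin, had -0.24, 0.05, 0.01 and 0.05. PSMD9 spread most, with 0.71, -0.98, -0.63 and 0.98. Written as Cy5 over Cy3, its ratio was -0.71, -0.98, -0.63 and -0.98, so Cy3 was brighter on every array whichever culture it held. The other 2 PSMD9 probes had 0.70 and 0.42 on P114 replicate 1 and -0.41 and 0.06 on P114 replicate 2.

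Core and regulatory particle were compared by their medians. The 12 core genes had a median of -0.02 in P114 and -0.01 in CMT-U27, and the 16 genes of the regulatory particle had 0.06 and 0.09. The core median minus the regulatory particle median was -0.14, 0.01, -0.04 and -0.12 on P114 replicates 1 and 2 and CMT-U27 replicates 1 and 2, so it was below 0 on 3 of 4 arrays. Under median centring it was -0.13, 0.02, 0.09 and -0.03, and the order turned on CMT-U27 replicate 1. From the log ratio computed by the scanner software it was -0.12, 0.00, 0.00 and -0.11. The gap was widest on P114 replicate 1 and CMT-U27 replicate 2, the arrays with the co-culture in Cy3. It is a description of medians and was not tested.

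The second comparison set CMT-U27 against P114 in single culture, from the single-culture channel of each array. Of the 38 members, 5 (13.2%) were higher in CMT-U27 at an adjusted p under 0.05, where 9.79% of all tested genes were. Another 2 (5.26%) were lower, where 8.01% were. The higher ones were PSMB4, PSMC5, PSMD13, PSMG2 and PSMD9, and the lower ones PSME4 and PSMG4. At an unadjusted p under 0.05, 11 members (28.9%) were higher, where 18.1% of all tested genes were, and 5 (13.2%) were lower, where 15.2% were. The median over the members was 0.04, close to the 0.03 over all tested genes, so the members differed between lines singly and in both directions. The share higher at the unadjusted p lay above the background, the other shares lay nearer to it, and no test compared them. The single-culture channels of the lines did not overlap for 16 members with CMT-U27 higher (39.6% of all genes) and for 12 with CMT-U27 lower (34.3%).

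**Figure D3:**
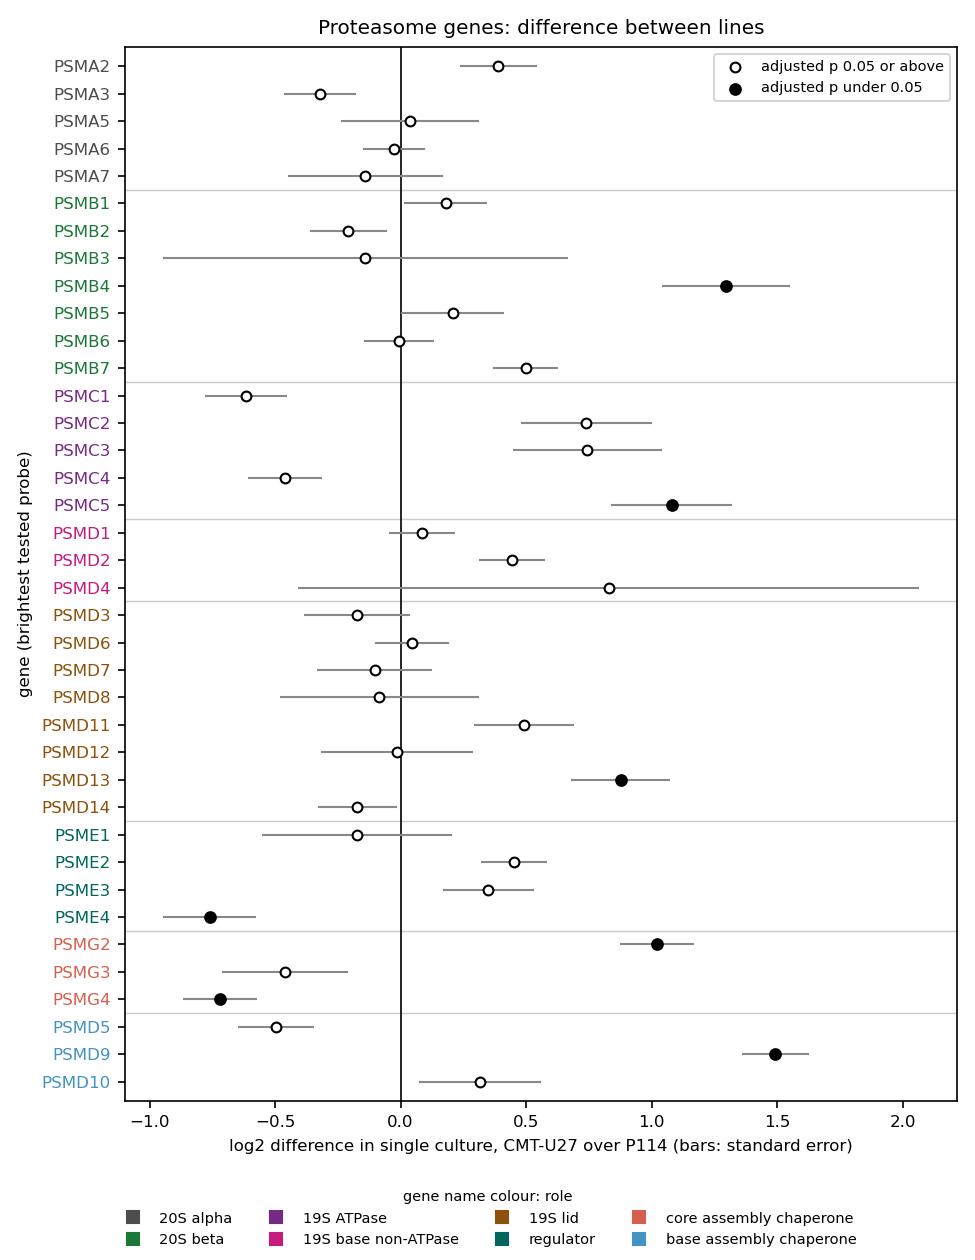
Log2 difference between CMT-U27 and P114 in single culture (horizontal axis, with standard error) for the brightest probe of each of the 38 genes (vertical axis, grouped by role). Filled points had an adjusted p under 0.05: PSMB4, PSMC5, PSMD13, PSMG2 and PSMD9 to the right and PSME4 and PSMG4 to the left. With median centring of the brightness in place of quantile normalization no point is filled and the median of the members moves from 0.04 to -0.46.

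PSMB4, a structural beta subunit, was the only core gene among the members past the threshold, and all 3 of its probes passed. Its brightest probe had log2 intensities of 14.43 and 14.48 in P114 and 15.76 and 15.75 in CMT-U27, so both CMT-U27 channels were above both P114 channels. The difference was 1.30 (SE 0.25, adjusted p = 0.0252, limma), a 2.46-fold higher level in CMT-U27. The other probes differed by 1.49 and 1.56. On the brightest probe the difference fell to 0.59 with median centring of the brightness, where it no longer passed.

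The 2 PSMB4 probes other than the brightest are shown because both also passed the threshold, at other places in the gene. They were placed at chr17:60462976-60463237 and chr17:60461822-60462162 on CanFam3.1, each open in 1 reading frame, with no part singled out in capitals.
PSMB4 middle probe: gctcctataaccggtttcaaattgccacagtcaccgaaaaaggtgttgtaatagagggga
PSMB4 dimmest probe: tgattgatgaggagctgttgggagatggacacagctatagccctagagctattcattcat
Both were hybridised with the same RNA as the brightest probe, so they add no replicate of the lines.

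The other core genes among the members did not pass the threshold. The PSMA4 probe, a core gene outside the rule, did pass it and was lower in CMT-U27, at -0.71 (adjusted p = 0.0237, limma). It had 13.70 and 13.67 in P114 and 12.96 and 12.99 in CMT-U27. PSMB7 was 0.50 higher in CMT-U27 (SE 0.13, adjusted p = 0.0594, limma), with 12.77 and 12.82 in P114 and 13.35 and 13.24 in CMT-U27. PSMB5 differed by 0.21 (SE 0.21) and PSMB6 by -0.01 (SE 0.14), and their channels overlapped between the lines. PSMA2 differed by 0.39 and PSMA3 by -0.32, both short of the threshold (adjusted p = 0.166 and 0.215, limma). Of the catalytic subunits the immunoproteasome PSMB9 was 1.30 higher in CMT-U27 on its brightest probe (adjusted p = 0.00317, limma), and PSMB10 was 0.51 lower without passing.

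Among the 19S ATPases, PSMC5 was 1.08 higher in CMT-U27 (SE 0.24, adjusted p = 0.0377, limma), from 10.31 and 11.15 in P114 to 11.89 and 11.72 in CMT-U27. P114 replicate 1 was the low channel, and without it the difference was 0.77. PSMC2 and PSMC3 were 0.74 higher each without passing, and P114 replicate 1 was the low channel for both. PSMC1 and PSMC4 lay the other way, at -0.62 and -0.46, and the second PSMC1 probe was at 0.22. The ATPases thus ran in both directions between lines.

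PSMD13, a lid subunit, was 0.88 higher in CMT-U27 (SE 0.20, adjusted p = 0.0383, limma), with 8.90 and 9.66 in P114 and 10.24 and 10.07 in CMT-U27. Without P114 replicate 1 the difference was 0.61. Its probe, at chr18:25394455-25396251 on CanFam3.1 and open in 1 frame, is shown as the lid's only reading past the threshold.
PSMD13: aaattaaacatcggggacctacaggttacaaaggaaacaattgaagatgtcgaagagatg
The other 7 lid genes ranged from -0.17 for PSMD3 to 0.49 for PSMD11 and none passed. The dimmer PSMD3 probe was at 0.29. For PSMD14 the brighter probe was at -0.17 and the dimmer at 0.21, so the sign depended on the probe for both genes. Of the base, PSMD2 was 0.44 higher (adjusted p = 0.0806, limma) and PSMD4 0.83 higher with an SE of 1.24.

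PSME4 was 0.76 lower in CMT-U27 on its brightest probe (SE 0.18, adjusted p = 0.0468, limma), with 9.92 and 9.84 in P114 and 9.10 and 9.14 in CMT-U27. Its other 4 probes differed by -0.19 to 0.10 and none passed, and the mean over all 5 was -0.15. The difference between the lines was thus read by 1 of 5 probes. PSME2 was 0.45 higher and PSME3 0.35 higher, both short of the threshold.

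Among the assembly chaperones, PSMG2 was 1.02 higher in CMT-U27 (SE 0.15, adjusted p = 0.00961, limma), from 11.69 and 11.98 in P114 to 12.86 and 12.85. PSMG4 was lower by the fitted difference of -0.72 (SE 0.15, adjusted p = 0.029, limma), from 12.37 and 12.35 to 11.57 and 11.71. PSMG3 was at -0.46 (adjusted p = 0.299, limma), so the 3 core chaperones did not run in 1 direction. PSMD9 was 1.49 higher (SE 0.14, adjusted p = 0.00218, limma), with 9.30 and 10.21 in P114 and 11.60 and 10.89 in CMT-U27. In each line the single-culture channel in Cy3 was the brighter one, the other 2 probes differed by 0.74 and 0.57 without passing, and without a dye term the adjusted p was 0.129.

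**Figure D4:**
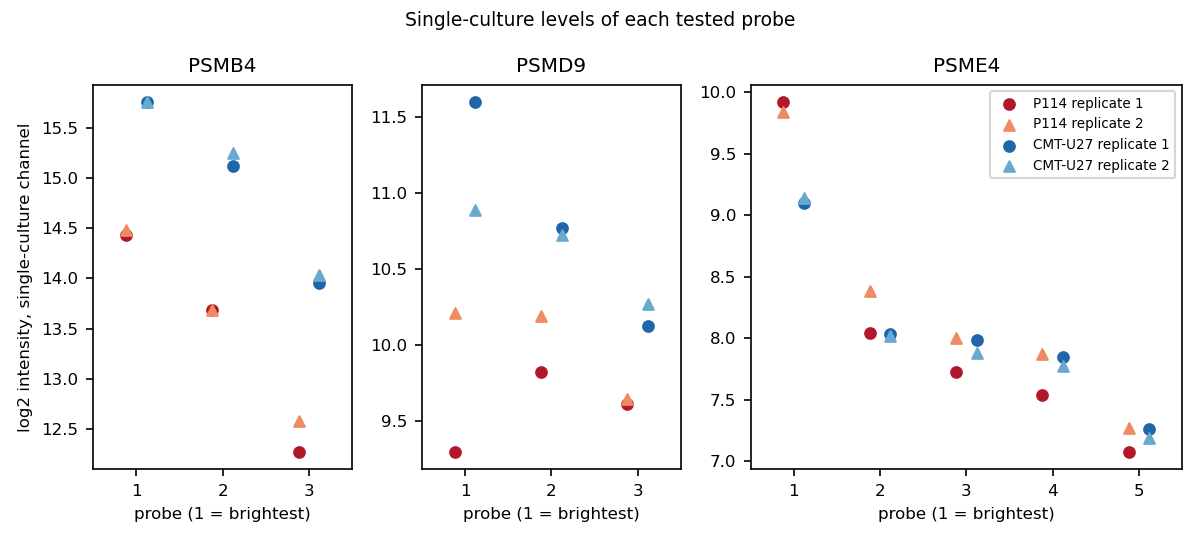
Log2 intensity in the single-culture channels (vertical axis) of every tested probe (horizontal axis, 1 is the brightest) of PSMB4, PSMD9 and PSME4, with 1 point for each array. The lines separate at all 3 PSMB4 probes, and at PSME4 only the brightest probe has P114 above CMT-U27 by more than the spread of the arrays.

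Each of the 7 calls depended on the processing. With median centring of the brightness none of the 7 passed. PSMC5, PSMD13 and PSME4 also missed the threshold without background correction, without the filter on dim probes and with the scanner software's signals (adjusted p of 0.0514 to 0.138, limma). PSMB4 missed it without the filter (adjusted p = 0.0555, limma), PSMG2 with the scanner software's signals (adjusted p = 0.051, limma), and PSMG4 without background correction and with those signals (adjusted p = 0.0683 and 0.181, limma). PSMD9 and PSME4 missed it when the probes of a gene were averaged (adjusted p = 0.14 and 0.568, limma).

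Of 28 further symbols of the ubiquitin-proteasome pathway, some of them alternative names of 1 gene, 22 were on the array by symbol and all 22 were tested. None passed in co-culture in P114 or CMT-U27, where their medians were 0.01 in both. Between lines, 2 of 22 were higher in CMT-U27 and 1 lower, where 9.79% and 8.01% of all tested genes were. UBE3C, a ubiquitin ligase of the proteasome, was 0.87 higher (adjusted p = 0.0373, limma) and UFD1L, a cofactor of VCP, 0.60 higher (adjusted p = 0.0423, limma). VCP, the ATPase that extracts ubiquitinated proteins, was at -0.74 (adjusted p = 0.0439, limma). In P114 the smallest unadjusted p-values in co-culture were those of UBQLN2 at 0.28, USP14 at -0.12 and NGLY1 at -0.17, and in CMT-U27 those of RPS27A at -0.20, UBE3C at 0.16 and UBQLN2 at 0.12.

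By position, PSMB4 has PSMD4 as a neighbour on chromosome 17. Of the 12 other tested genes within 250 kb of the PSMB4 probe, 11 were above 0 between lines and 5 passed the threshold, all 5 higher in CMT-U27, with a median of 0.96. These were ZNF687 (0.87), PI4KB (1.15), RFX5 (1.06), SELENBP1 (1.15) and CGN (3.75), the last encoding a tight-junction protein. Over the 361 tested genes of chromosome 17 the median was 0.32 with 70.9% above 0, and over all tested genes 0.03 with 53.6% above 0. Chromosome 17 was not alone in this. The median was 0.26 on the chromosome of PSMD9 (72.1% above 0), 0.20 on that of PSMD13 (68.6%) and 0.12 on that of PSMC5 (65.2%). It was 0.13 on that of PSMG4 (59.3%), 0.05 on that of PSMG2 (56.8%) and -0.04 on that of PSME4 (45.4%). At the adjusted threshold 9.79% of all tested genes were higher in CMT-U27. Around the other 6 members past the threshold the medians of the tested neighbours ranged from -0.38 near PSMG4 to 0.35 near PSMG2. Neighbours above 0 numbered 11 of 14 near PSMC5, 6 of 9 near PSMD13, 8 of 9 near PSMD9, 2 of 3 near PSME4, 3 of 3 near PSMG2 and 1 of 3 near PSMG4. The PSMB4 window was looked at after the PSMB4 value was known, and copy number was not measured.

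**Figure D5:**
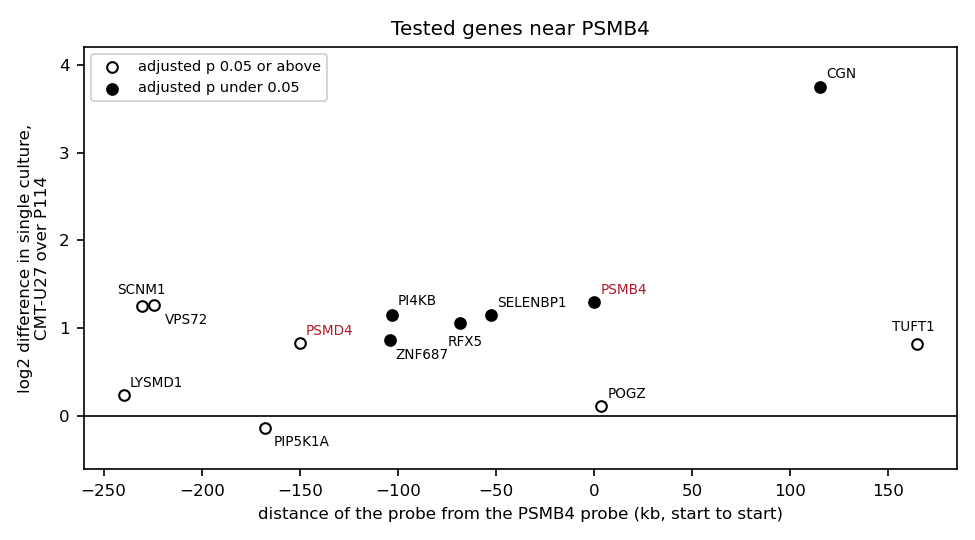
Log2 difference between CMT-U27 and P114 in single culture (vertical axis) of the tested genes near PSMB4 against the distance of their probe from the PSMB4 probe in kb (horizontal axis). Filled points had an adjusted p under 0.05, all of them above 0, and 11 of the 12 neighbours lie above 0.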

How the data were processed

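Each deposited file gives, for every spot, linear intensity and local background from Agilent Feature Extraction (version 10.10.1.1 per the file headers, 10.7.3.1 per the submitters' processing notes). Per the file headers, the deposited log10 ratio is Cy5 over Cy3 after the software's own dye normalization, and the authors' value table repeats it. The array design is 021193, on CanFam3.1. The labels name a miRNA labelling kit for these gene expression arrays.

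Mean intensities were corrected with normexp (offset 50), loess was applied within arrays, marked spots were left out, and log2 ratios were turned to co-culture over single culture. A probe was tested where both arrays of some line and culture showed it well above background (28734 of 43603), and 40 of these were lost to a marked spot, which left 28694. limma 3.58.1 in R 4.3.3 (data.table version 1.17.8) fitted the 4 arrays with line and dye as terms for each probe, with 1 residual and 2.76 prior degrees of freedom. Single cultures of the lines were compared with limma's separate-channel fit, after Aquantile normalization, with 3 residual and 2.69 prior degrees of freedom and an intraspot correlation of 0.94. Adjusted p-values are Benjamini-Hochberg over all tested probes, and counts are of genes by their brightest probe. No test compared sets of genes. Scripts were tested on simulated data. Figures used Python 3.11.15, pandas 2.3.3 and matplotlib 3.10.9, and codons were read with biopython 1.88.

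Genes were named by a rule: PSMB5, PSMB6 and PSMB7, in each role the 2 genes with the smallest unadjusted p in P114, CMT-U27 and between lines, and every member past the threshold. Each gene is shown by its brightest tested probe, with other probes as a range. Further genes were named from their values where they fell outside it: the other members given with array values, and the neighbours of PSMB4. Members and lists were chosen with earlier results of these data known. Alternatives were other background corrections, scalings, filters and dye terms, each array left out and the mean of a gene's probes. The number of arrays limits precision.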

Additional observations from a re-analysis of the deposited data

Results flagged for a closer look

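For 2 members, each given by its brightest probe, both P114 arrays lay on one side of 0 and both CMT-U27 arrays on the other. Over all tested genes, 23.7% were above 0 and 19% below 0 on both P114 arrays. On both CMT-U27 arrays 41.2% were above 0 and 10.9% below 0. The share of all tested genes with opposite sides between lines is not given, so the 2 members cannot be set against it. PSMD1, a scaffold subunit of the 19S base, had co-culture log2 ratios of 0.10 and 0.10 in P114 and -0.01 and -0.06 in CMT-U27, with a difference (CMT-U27 minus P114) of -0.14 (SE 0.09, unadjusted p = 0.193, adjusted p = 1, limma). PSME2, a subunit of the interferon-inducible cap, had -0.03 and -0.02 in P114 and 0.11 and 0.03 in CMT-U27, with a difference of 0.10 (SE 0.09, unadjusted p = 0.348, adjusted p = 1, limma). Neither difference passed the test, and the 3 other PSMD1 probes did not share the pattern. The second PSME2 probe had fitted ratios of -0.05 in P114 and 0.06 in CMT-U27. With the scanner log ratio, in the order P114 then CMT-U27, PSMD1 had 0.23, 0.03, 0.00 and 0.02. PSME2 then had -0.11, 0.04, 0.08 and 0.09, so neither gene kept the pattern there. With 2 arrays per line, no check for a stray array was made within a line.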

How the results depend on the processing

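Each array pairs both cultures of a line, and every co-culture ratio is taken within its array. No further pairing, across arrays or lines, was possible, since the labels number no replicates. The slide could not be fitted as a block, since all arrays lay on 1 slide. In co-culture no member passed in any comparison under any alternative run except median centring in place of loess, which gave 37 members past the threshold in CMT-U27, 37 in the mean of both lines and 36 in CMT-U27 minus P114, and 0 in P114. Of the 28694 tested probes, dim ones included, 17343, 16518, 12449 and 5 passed in these comparisons, so the shift is not one of the members alone. The median of the members was then 0.43 in P114, 1.48 in CMT-U27, 0.95 in the mean and 1.02 in the difference, and the core minus regulatory particle difference in CMT-U27 was 0.012 in place of -0.11. With each array left out in turn, the co-culture fit also had no dye term. The line that lost an array was then read from its other array alone, any dye difference included. The median of the members ranged from -0.01 to 0.05 in P114 and 0.02 to 0.05 in CMT-U27. In the mean it ranged from 0.02 to 0.04 and in the difference from -0.04 to 0.04. The core minus regulatory particle difference ranged from -0.14 to 0.01 in P114 and from -0.12 to -0.036 in CMT-U27. Between the lines in single culture, the 7 members past the threshold became 0 with median centring of the brightness (median of the members -0.46), 3 without background correction, 3 without a filter on dim probes, 2 with the scanner software's signals, 16 without a dye term and 5 with the mean of a gene's probes. Over all probes 4349 passed, against 0 with that centring, 3940 without background correction, 3575 without the filter, 2488 with those signals and 9379 without a dye term. The members past the threshold became 9 to 24 with an array left out, while the probes became 5786 to 17427, where the lone array of a line is assumed to vary like the others and the median ranged from 0.04 to 0.14; the cause was not tested. All 7 kept their direction under every alternative run. Of the 30 named genes, 12 changed the sign of their P114 co-culture ratio without P114 replicate 1 and 10 without P114 replicate 2. For CMT-U27, 6 changed sign without its replicate 1 and 10 without its replicate 2. In these runs an array and the balance of the dyes were lost together, and their parts were not told apart. With the scanner log ratio 2 changed sign in P114 and 10 in CMT-U27, without background correction 4 and 9, and with median centring 12 and 9.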
